A study of Rattus norvegicus with 21 samples.

Results

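The genes described here encode the enzymes and carriers that bring pyruvate, amino acids and ketone bodies into the citric acid cycle, and the enzymes of the cycle itself. The list names 36 gene symbols, and its members are those with a row in the deposited count table. A row was present for 34 of the 36 among 17085 symbols, and all 34 passed the filter on low counts, with no library at 0. Idh3g and Glud1 were not analysed here.

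The citric acid cycle runs in the mitochondrial matrix, where acetyl-CoA is joined to oxaloacetate and oxidised, and the released electrons feed the respiratory chain. Pyruvate enters through a carrier of the inner membrane and the pyruvate dehydrogenase complex. The malate-aspartate shuttle carries cytosolic reducing equivalents into the matrix. The heart is packed with mitochondria and oxidises fatty acids, lactate, ketone bodies and amino acids for its contraction, so cardiomyocytes normally hold these transcripts at high levels.

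RNA was sequenced from the infarct zone of Sprague Dawley rats in 7 groups of 3 libraries each. MI1h_F and MI1h_R hearts had the left anterior descending coronary artery closed for 1 h and reperfused for 23 h, and MI6h_F and MI6h_R hearts had 6 h of ischemia and 18 h of reperfusion. MI24h_F and MI24h hearts stayed ligated for 24 h, and Sham hearts were the operated controls. The letter F marks a second arm whose meaning the labels leave unspelled; the design text of the series names pretreatment with the PPARα agonist fenofibrate, and no Sham group carries the letter. Injured hearts were collected 24 h after the ligation, and the tissue is bulk tissue with no sorting. Whether the 3 libraries of each group are from separate animals is not stated in the labels, so p-values measure the spread between these libraries, which may be technical.

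Libraries held 12208041 to 18393795 counts, and 11742 genes were tested in 1 edgeR quasi-likelihood model. The 34 genes took 0.351% to 0.938% of the counts in the 18 injured libraries and 1.82% to 2.40% in Sham. Transcripts of the mitochondrial genome took 11.3% to 20.2% of the counts in injured libraries and 33.5% to 38.5% in Sham. Levels below are CPM, counts scaled to the same library total after TMM adjustment, and levels of different genes are compared only in the authors' TPM, which divides by transcript length. A gene was called at a Benjamini-Hochberg adjusted p below 0.05 over all genes tested.

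Per length, the most abundant of the genes in MI24h hearts was Ldhb, the heart-type subunit of lactate dehydrogenase, at 559 ± 76.6 TPM (SD, n = 3, as for the TPM values that follow). Mitochondrial malate dehydrogenase Mdh2 came next at 425 ± 46.2 TPM, its cytosolic counterpart Mdh1 ranked 5 of 34 at 219 ± 38.9 TPM, and the citrate carrier Slc25a1 ranked 26 of 34 at 30.8 ± 5.55 TPM. In Sham hearts Ldhb also ranked first, at 2826 ± 311 TPM, followed by Mdh1 at 1435 ± 175 TPM, mitochondrial isocitrate dehydrogenase Idh2 at 1367 ± 192 TPM and Mdh2 at 1055 ± 83.9 TPM. Mdh1 and Idh2 did not differ beyond their spread in Sham, while the lowest Idh2 library, at 1146 TPM, stood just above the highest Mdh2 library, at 1135 TPM. Oxct1, which activates the ketone body acetoacetate, ranked 5 of 34 at 726 ± 141 TPM. At the low end of Sham stood the mitochondrial malic enzyme Me3 at 28.4 ± 3.93 TPM, the aspartate-glutamate carrier Slc25a13 at 28.2 ± 7.06 TPM and, last, Slc25a1 at 7.08 ± 3.15 TPM.

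Against Sham, 33 of the 34 genes fell and 1, Slc25a1, rose in each of the 3 injuries without F. Among all genes tested, edgeR called 24.1% lower and 25.4% higher in MI1h_R, 28.0% lower and 29.3% higher in MI6h_R, and 26.2% lower and 28.0% higher in MI24h. The median log2 fold change over the 34 genes was -2.19 in MI1h_R, -2.54 in MI6h_R and -2.50 in MI24h, against 0.06, 0.06 and 0.07 over all genes tested. For every one of the 34 genes the 3 injured and the 3 Sham libraries did not overlap in CPM in any of these comparisons, where 24.5% (MI1h_R), 28.4% (MI6h_R) and 26.1% (MI24h) of all genes did not overlap with the injured group lower. The 3 comparisons share the Sham libraries. In bulk tissue, fewer cells of a type and less RNA per cell cannot be told apart. With library sizes as the only scaling, edgeR called 10.8% of all genes lower and 56.2% higher in MI1h_R, 12.9% and 58.6% in MI6h_R, and 12.8% and 55.2% in MI24h, while 33 of the 34 genes still fell in each. All genes then had a median of 0.82, 0.91 and 0.80, and the median of the 34 genes relative to it was -2.23, -2.57 and -2.54.

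**Figure D1:**
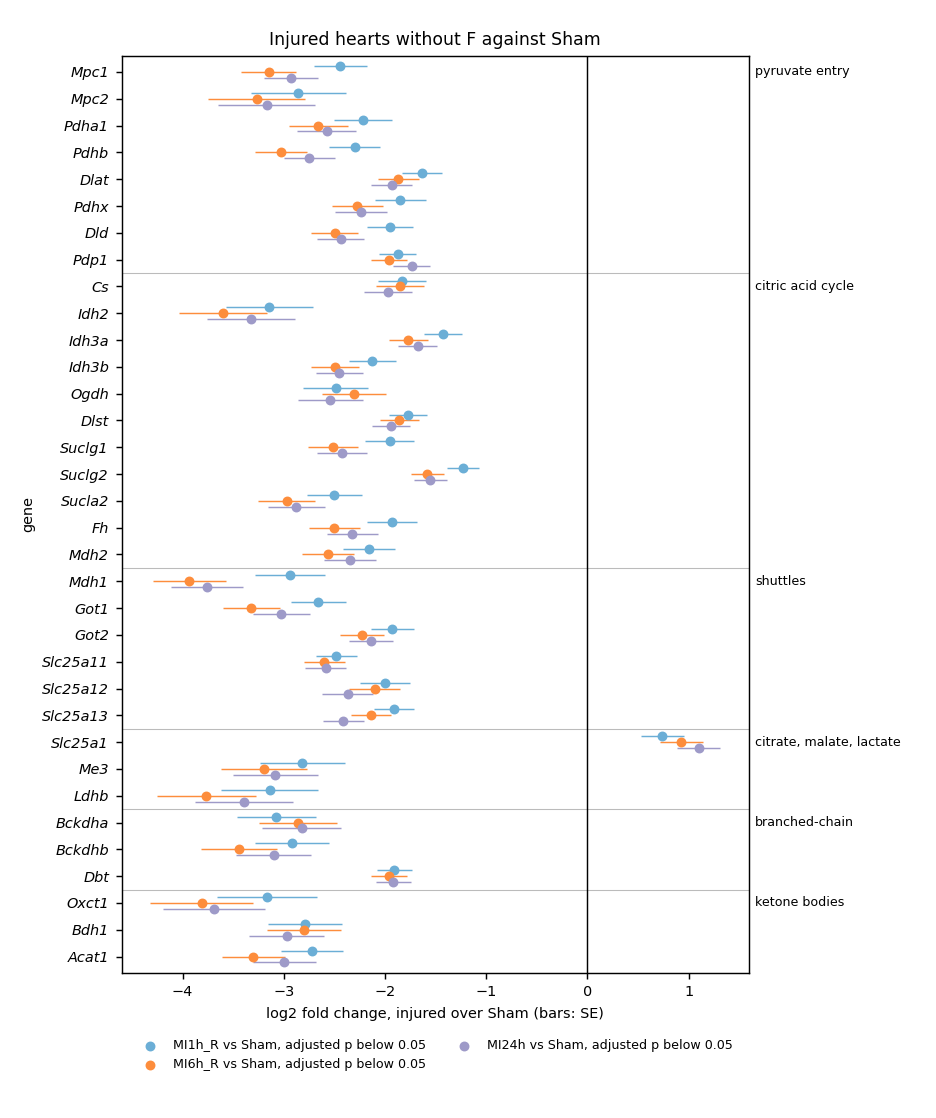
Log2 fold change (x axis) of each of the 34 genes (y axis, grouped by role) in MI1h_R, MI6h_R and MI24h over Sham, from edgeR on 3 libraries a group; bars are standard errors. All points but those of Slc25a1 lie left of 0, between -1.23 for Suclg2 in MI1h_R and -3.93 for Mdh1 in MI6h_R.

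All 8 genes of pyruvate entry fell in each injury. Mpc1, a subunit of the mitochondrial pyruvate carrier, had 156, 162 and 121 CPM in MI1h_R, 83.5, 66.6 and 118 CPM in MI6h_R and 81.8, 101 and 131 CPM in MI24h, against 648, 651 and 1080.2 CPM in Sham. Pdha1, the catalytic α subunit of pyruvate dehydrogenase, had 315, 397 and 284 CPM in MI1h_R, 226, 177 and 333 CPM in MI6h_R and 249, 247 and 282 CPM in MI24h, against 1609, 1006 and 2027 CPM in Sham. For both genes the lowest Sham library stood well above the highest injured one, and the third Sham library was the highest of all. The log2 fold change of Mpc1 was -2.44 (SE 0.26) in MI1h_R, -3.15 (SE 0.27) in MI6h_R and -2.93 (SE 0.27) in MI24h, with edgeR adjusted p of 2.43e-06, 1.82e-07 and 3.24e-07. Pdha1 changed by -2.22 (SE 0.29), -2.66 (SE 0.29) and -2.58 (SE 0.29) in the same order.

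Within the complex itself, the β subunit Pdhb fell by 2.75 on the log2 scale in MI24h, the acetyltransferase Dlat by 1.93 and the binding protein Pdhx, which anchors the third enzyme, by 2.24. Dld, the dihydrolipoamide dehydrogenase that pyruvate, 2-oxoglutarate and branched-chain dehydrogenases share, fell by 2.44. Pdp1, the phosphatase that switches the complex on, fell by 1.74, the smallest fall of this role in MI24h. Mpc2, the other subunit of the carrier, fell by 3.17, but its row held only 9 to 170 counts per library. Across MI1h_R and MI6h_R, the 8 genes lay between -1.63 (Dlat, MI1h_R) and -3.27 (Mpc2, MI6h_R).

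All 11 genes of the cycle fell in each injury, with a median log2 fold change of -1.95 in MI1h_R, -2.49 in MI6h_R and -2.35 in MI24h. Citrate synthase Cs, which opens the cycle, had 158, 179.6 and 203 CPM in MI1h_R, 144, 158 and 231 CPM in MI6h_R and 168, 173 and 151 CPM in MI24h, against 755, 424 and 745 CPM in Sham. Idh2, the NADP-dependent isocitrate dehydrogenase of the matrix, had 462, 466 and 377 CPM in MI1h_R, 244, 174 and 533 CPM in MI6h_R and 339, 430.3 and 379.6 CPM in MI24h, against 3391, 3019 and 5124 CPM in Sham. The second Sham library was the lowest of its group for both genes and still exceeded every injured library, and the third MI6h_R library exceeded the other two of its group for both. Cs changed by -1.83 (SE 0.24), -1.85 (SE 0.24) and -1.97 (SE 0.24) in MI1h_R, MI6h_R and MI24h, and Idh2, the deepest fall in the cycle, by -3.14 (SE 0.43), -3.60 (SE 0.44) and -3.33 (SE 0.43). The edgeR adjusted p in MI24h was 2.65e-06 for Cs and 5.99e-06 for Idh2.

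Of the NAD-dependent isocitrate dehydrogenase, the catalytic subunit Idh3a fell by 1.68 on the log2 scale in MI24h and the subunit Idh3b by 2.45. Ogdh, the first enzyme of the 2-oxoglutarate dehydrogenase complex, fell by 2.54 and Dlst, its succinyltransferase, by 1.94. The Ogdh row is identical to that of an unnamed locus in every library, so reads of the pair cannot be separated. Suclg1, the shared α subunit of succinyl-CoA ligase, fell by 2.42, fumarase Fh by 2.33 and Mdh2, which closes the cycle, by 2.35.

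Succinyl-CoA ligase pairs Suclg1 with 1 of 2 β subunits, Sucla2 for the ATP-forming and Suclg2 for the GTP-forming enzyme, and the β subunits fell by unequal amounts. Sucla2 had 174, 203 and 118 CPM in MI1h_R, 114, 89.1 and 154 CPM in MI6h_R and 108, 126 and 148 CPM in MI24h, against 725, 764 and 1312 CPM in Sham. Suclg2 had 116, 143 and 97.0 CPM in MI1h_R, 90.2, 82.0 and 106 CPM in MI6h_R and 82.3, 99.0 and 102 CPM in MI24h, against 254, 254 and 326 CPM in Sham. No injured library reached a Sham library for either gene. The log2 fold change of Sucla2 was -2.50 (SE 0.27), -2.97 (SE 0.28) and -2.88 (SE 0.28) in MI1h_R, MI6h_R and MI24h, while that of Suclg2, the smallest fall among the 33 genes in each injury, was -1.23 (SE 0.16), -1.58 (SE 0.16) and -1.55 (SE 0.16). In MI24h the edgeR adjusted p was 4.53e-07 for Sucla2 and 8.68e-07 for Suclg2.

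The 250 bases before the annotated start of Sucla2 and of Suclg2 are shown because the 2 β subunits differed in the size of their fall, and those of Slc25a1 because it was the gene that rose; these 3 were chosen after their values were seen. Sequences are from RefSeq (GRCr8), at chr15:55161644-55161893 on the plus strand for Sucla2, chr4:129893938-129894187 on the minus strand for Suclg2 and chr11:96559804-96560053 on the plus strand for Slc25a1, 5′ to 3′ along each gene. Capitals mark a match to the pattern bound by the factor NRF1.
Sucla2: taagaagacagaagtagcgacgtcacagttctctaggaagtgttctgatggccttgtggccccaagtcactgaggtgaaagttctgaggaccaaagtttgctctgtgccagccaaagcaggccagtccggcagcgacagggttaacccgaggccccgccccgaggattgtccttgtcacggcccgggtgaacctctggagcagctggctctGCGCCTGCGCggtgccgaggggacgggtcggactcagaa
Suclg2: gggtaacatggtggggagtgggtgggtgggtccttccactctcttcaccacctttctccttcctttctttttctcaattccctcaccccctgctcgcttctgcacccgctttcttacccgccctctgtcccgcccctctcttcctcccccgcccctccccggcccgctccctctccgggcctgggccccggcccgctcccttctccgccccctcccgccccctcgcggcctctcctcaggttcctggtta
Slc25a1: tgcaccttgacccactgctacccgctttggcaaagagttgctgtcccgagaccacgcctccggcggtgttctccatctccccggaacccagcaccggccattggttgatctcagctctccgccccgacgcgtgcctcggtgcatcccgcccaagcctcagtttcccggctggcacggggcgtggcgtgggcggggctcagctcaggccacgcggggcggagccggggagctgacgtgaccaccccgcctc
The match of Sucla2 lies 39 to 30 bases before the start, and the Suclg2 and Slc25a1 windows hold none. RefSeq promoters of 250 bases before to 50 after the start were matched for 31 of the 34 genes, and the NRF1 pattern on either strand occurred in 2 of them (Dld and Sucla2), or 6.45%, against 4.25% of 33469 promoters of the same length. The estrogen-related receptor pattern TNAAGGTCA, its core AAGGTCA and the direct repeat of AGGTCA with a single base between (DR1), searched on both strands, occurred in 0 of the 31 windows, against 1.20%, 4.61% and 0.0538% of all promoters; every TNAAGGTCA is also an AAGGTCA. The median GC content was 61.0% in the 31 windows and 51.7% in all promoters.

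The 6 genes grouped here under the malate-aspartate shuttle, with Mdh2 counted under the cycle, fell in each injury. Mdh1 had the deepest fall of all 34 genes in MI6h_R and MI24h. Mdh1 had 406, 483 and 259 CPM in MI1h_R, 165, 124 and 286 CPM in MI6h_R and 173, 227 and 249 CPM in MI24h, against 2354, 2421 and 4010.1 CPM in Sham. The 2 highest libraries of these injuries were MI1h_R libraries, and Sham stood several-fold above them. Its log2 fold change was -2.94 (SE 0.35), -3.93 (SE 0.36) and -3.76 (SE 0.36) in MI1h_R, MI6h_R and MI24h. With TMM scaling that was a level 13.5-fold lower in MI24h, with an edgeR adjusted p there of 4.17e-07. In TPM the difference was smaller, with means of 219 in MI24h and 1435 in Sham. Got1, the cytosolic aspartate aminotransferase, fell by 3.02 on the log2 scale in MI24h and its mitochondrial counterpart Got2 by 2.13. The oxoglutarate carrier Slc25a11 fell by 2.59, with the smallest p of the 34 genes in each injury (edgeR adjusted p = 6.52e-07, 1.14e-07 and 1.43e-07 in MI1h_R, MI6h_R and MI24h). The aspartate-glutamate carriers Slc25a12 and Slc25a13 fell by 2.37 and 2.41 in MI24h.

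Slc25a1 exports citrate from mitochondria to the cytosol, where it supplies acetyl-CoA for lipid synthesis. It had 36.8, 28.5 and 30.7 CPM in MI1h_R, 42.4, 32.4 and 34.6 CPM in MI6h_R and 39.5, 44.4 and 39.3 CPM in MI24h, against 12.0, 27.8 and 17.8 CPM in Sham. The second Sham library came close to the lowest MI1h_R library without reaching it. That library also held 3318 CPM of summed monocyte and macrophage markers, against 606 and 571 CPM in the other Sham libraries; the part of this in the value was not tested. Slc25a1 changed by 0.74 (SE 0.21), 0.93 (SE 0.21) and 1.10 (SE 0.21) in MI1h_R, MI6h_R and MI24h, with edgeR adjusted p of 0.00794, 0.00124 and 0.000314. The call in MI1h_R was lost when only the 6 libraries compared were fitted, at a log2 fold change of 0.73.

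Ldhb favours the conversion of lactate to pyruvate in heart muscle. It had 645, 814 and 494 CPM in MI1h_R, 309.9, 219 and 738 CPM in MI6h_R and 513, 569 and 556 CPM in MI24h, against 4442, 4946 and 7829 CPM in Sham. The MI24h libraries lay close together, while the third MI6h_R library stood well above the other two. Ldhb changed by -3.14 (SE 0.48), -3.76 (SE 0.49) and -3.39 (SE 0.48) in MI1h_R, MI6h_R and MI24h. Me3, the mitochondrial malic enzyme that makes pyruvate from malate, fell by 3.08 on the log2 scale in MI24h.

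The branched-chain dehydrogenase genes fell in each injury. Bckdha, the α subunit of its first enzyme, had 45.2, 28.4 and 39.2 CPM in MI1h_R, 36.5, 27.1 and 67.1 CPM in MI6h_R and 48.5, 37.9 and 47.4 CPM in MI24h, against 189.7, 302 and 457 CPM in Sham. It changed by -3.07 (SE 0.39), -2.86 (SE 0.39) and -2.82 (SE 0.39), and its mean was lowest in MI1h_R, a difference from MI24h that was not called. The β subunit Bckdhb fell by 3.10 on the log2 scale in MI24h and the acyltransferase Dbt by 1.92.

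The ketone body genes fell in each injury as well, with Oxct1 deepest in MI1h_R of all 34 genes. Oxct1, the transferase that activates acetoacetate, had 282, 355 and 157 CPM in MI1h_R, 141, 76.0 and 292 CPM in MI6h_R and 205, 174 and 173 CPM in MI24h, against 1901, 1787 and 3439.8 CPM in Sham. The injured libraries ranged widely, yet the highest of them was far under the lowest Sham library. Oxct1 changed by -3.17 (SE 0.50), -3.81 (SE 0.51) and -3.69 (SE 0.51), with an edgeR adjusted p in MI24h of 1.04e-05. Bdh1, which converts β-hydroxybutyrate to acetoacetate, fell by 2.97 on the log2 scale in MI24h. The thiolase Acat1 averaged 112 CPM in MI24h and 891 CPM in Sham, with an edgeR adjusted p of 7.64e-07.

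**Figure D2:**
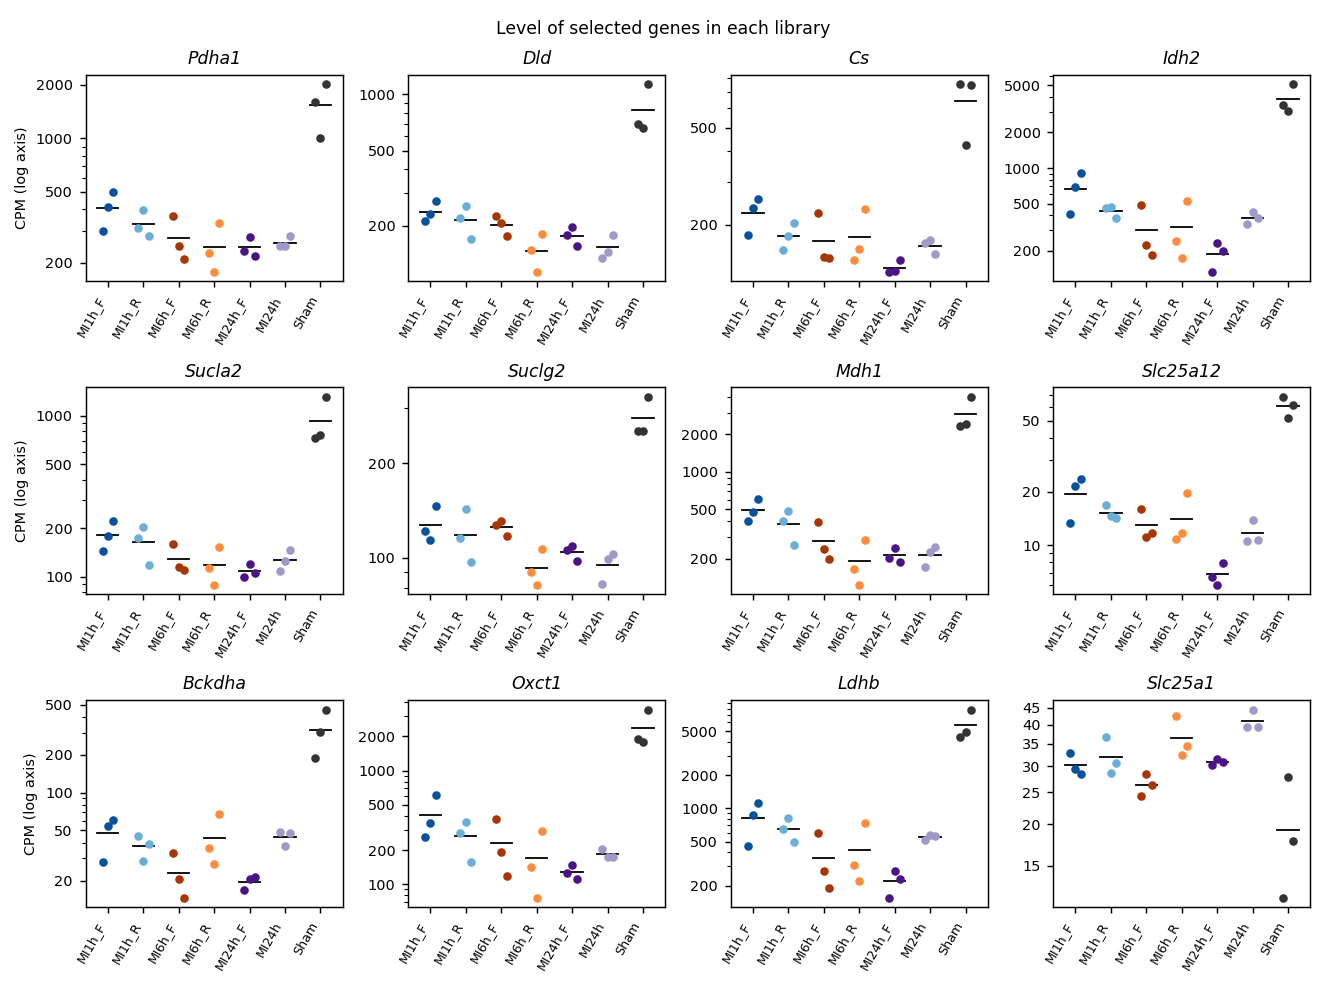
CPM on a log axis (y) of 12 of the genes in each of the 21 libraries (points) by group (x), with the group mean as a line, n = 3 a group. Sham libraries stand above all injured libraries for 11 of the genes and below those without F for Slc25a1; Slc25a12 and Bckdha are lower in MI24h_F than in MI24h.

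Other genes of the same pathways were read from a list of partners, of which 56 had a row and 53 were tested. Of these 53, 39 fell and 6 rose in MI1h_R against Sham, 42 fell and 6 rose in MI6h_R, and 41 fell and 6 rose in MI24h. In MI24h the falls with the smallest p were those of Hibch, a hydrolase of valine breakdown, at 11.9 CPM in MI24h and 69.5 CPM in Sham, a log2 fold change of -2.55 (SE 0.20) with an edgeR adjusted p of 1.43e-07. Lias, which makes the lipoyl group that the dehydrogenase complexes need, changed by -2.68 (SE 0.23), and the succinate dehydrogenase subunits Sdhd and Sdhb by -2.83 (SE 0.25) and -2.53 (SE 0.23). The risers with the smallest p were Asns, the asparagine synthetase, with 36.2 CPM in MI24h and 4.10 CPM in Sham, and Slc16a3, a lactate exporter, with 196 CPM in MI24h and 2.73 CPM in Sham. Acly, which cleaves the citrate that Slc25a1 exports, changed by 1.71 (SE 0.20), and the cytosolic branched-chain aminotransferase Bcat1 by 3.62 (SE 0.51). In MI1h_R and MI6h_R the same rule named Asns, Bcat1, Acly and Slc16a3 among the risers and Hibch and Auh, of leucine breakdown, among the genes that fell, with Bcat2, Pdk1, Sdhd or Sdhb beside them.

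Cardiomyocyte markers moved with these genes. Of 11 cardiomyocyte markers with a row, 10 fell in MI1h_R, 11 in MI6h_R and 11 in MI24h against Sham, with median log2 fold changes of -3.19, -3.96 and -3.25, deeper than the medians of the 34 genes. Their summed level was 8604 to 12416 CPM in MI1h_R, 3389 to 8837 CPM in MI6h_R and 6918 to 10213 CPM in MI24h, against 58115 to 116151 CPM in Sham. None of the 11 was at 0 in any library, but Myl2 was at low levels throughout, 0.12 to 13.5 CPM. It had 3.11, 5.95 and 13.5 CPM in MI1h_R against 3.02, 4.82 and 12.0 CPM in Sham. The summed level of the 34 genes over that of the markers was 0.537 to 0.591 in MI1h_R, 0.705 to 0.985 in MI6h_R and 0.508 to 0.648 in MI24h, against 0.373 to 0.464 in Sham, so no Sham library reached an injured one. Of 9 neutrophil markers tested, 8 rose in each injury, with a summed level of 483 to 910 CPM in MI1h_R, 1313 to 1349 CPM in MI6h_R and 512 to 3042 CPM in MI24h, against 29.5 to 170 CPM in Sham; Camp was at 0 in 1 library, and Fpr2, at 0 in 3 libraries, was not tested. Of 9 macrophage markers, 8 rose in MI1h_R, 8 in MI6h_R and 6 in MI24h, and of 9 fibroblast markers 5, 7 and 7 fell. The part of cell makeup in the falls was not tested.

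**Figure D3:**
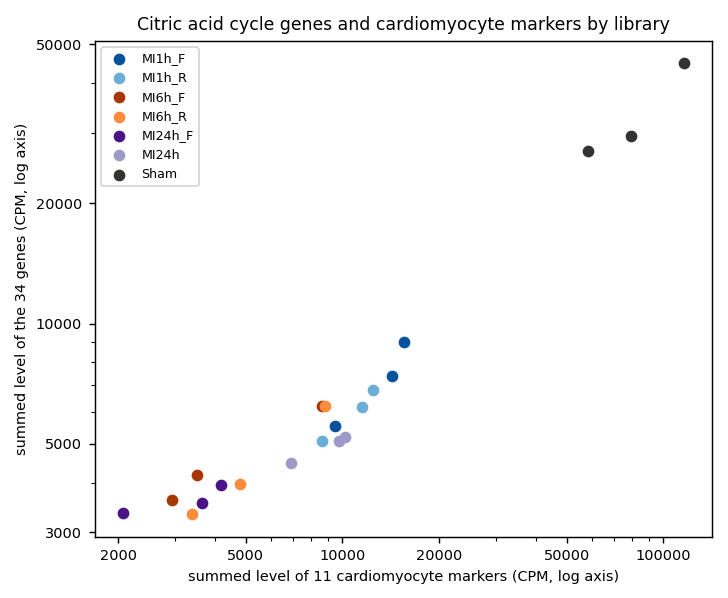
Summed CPM of the 34 genes (y, log axis) against summed CPM of 11 cardiomyocyte markers (x, log axis), 1 point per library, coloured by group. The 3 Sham libraries stand apart at the top right; among the injured groups, MI24h_F libraries have marker sums of 2069 to 4193 CPM and MI1h_F libraries of 9446 to 15509 CPM, both overlapping with other injured groups.

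Ratios between paired genes within a library do not depend on how libraries are scaled, and are given as log2 ratios of TPM without a test, since an exact permutation test of 3 libraries against 3 cannot go below p = 0.1. The ratio of Suclg2 to Sucla2 was -0.73, -0.58 and -0.44 in MI1h_R, -0.49, -0.29 and -0.70 in MI6h_R and -0.56, -0.50 and -0.67 in MI24h, against -1.64, -1.70 and -2.13 in Sham. Every injured library lay above every Sham library, so in TPM the GTP-forming subunit stood closer to the ATP-forming one after injury. The F groups stood at -0.37, -0.80 and -0.73 in MI1h_F, -0.45, 0.11 and -0.02 in MI6h_F and 0.02, -0.27 and -0.26 in MI24h_F.

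The ratio of Mdh1 to Mdh2 was -0.38, -0.22 and -0.43 in MI1h_R, -1.03, -1.17 and -0.71 in MI6h_R and -1.10, -0.89 and -0.92 in MI24h, against 0.41, 0.40 and 0.51 in Sham. It was below 0 in all 18 injured libraries and above 0 in each Sham library, so in TPM the cytosolic transcript was the less abundant of the pair after injury and the more abundant in Sham. All MI1h_R libraries stood above those of MI6h_R and MI24h. In the F arm it was -0.08, -0.15 and -0.10 in MI1h_F, -0.23, -0.61 and -0.61 in MI6h_F and -0.42, -0.36 and -0.62 in MI24h_F. The mean of each F group stood above that of its group without F at the same ischemia time.

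Ldha encodes the muscle-type subunit of lactate dehydrogenase, which favours lactate formation. The log2 ratio of Ldha to Ldhb was 0.53, 0.52 and 0.78 in MI1h_R, 1.71, 1.85 and 0.04 in MI6h_R and 1.58, 1.14 and 1.71 in MI24h, against -2.12, -1.80 and -2.38 in Sham, with every injured library above every Sham library. The F groups stood at 0.75, -0.33 and -0.36 in MI1h_F, 0.24, 1.87 and 2.14 in MI6h_F and 3.33, 2.54 and 2.74 in MI24h_F, and the MI24h_F libraries all exceeded those of every other group. The ratio of Idh1, the cytosolic isocitrate dehydrogenase, to Idh2 averaged -2.77 in MI1h_R, -2.57 in MI6h_R and -2.94 in MI24h, against -5.12 in Sham. The ratio of Got1 to Got2 averaged -1.37 in MI1h_R, -1.72 in MI6h_R and -1.51 in MI24h, against -0.68 in Sham.

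The aspartate-glutamate carriers stood in another ratio to each other in MI24h_F than in the other groups. The log2 ratio of Slc25a13 to Slc25a12 averaged -1.15 in MI1h_R, -1.25 in MI6h_R, -1.27 in MI24h and -1.24 in Sham, and -1.30 in MI1h_F. It was -0.25, -0.25 and -0.36 in MI24h_F, above every other library of the series, and -0.91, -0.86 and -0.75 in MI6h_F. Bckdk, the kinase that shuts off the branched-chain dehydrogenase, had a mean log2 ratio to Bckdha of 0.81 in MI1h_R, 0.64 in MI6h_R and 0.43 in MI24h, against -0.66 in Sham, and of 0.76 in MI1h_F, 1.85 in MI6h_F and 1.69 in MI24h_F. Pdk4, a kinase that shuts off pyruvate dehydrogenase, had a mean log2 ratio to Pdha1 of -3.18 in MI1h_R, -1.16 in MI6h_R and -1.81 in MI24h, against -2.22 in Sham, and each of these groups overlapped with Sham.

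**Figure D4:**
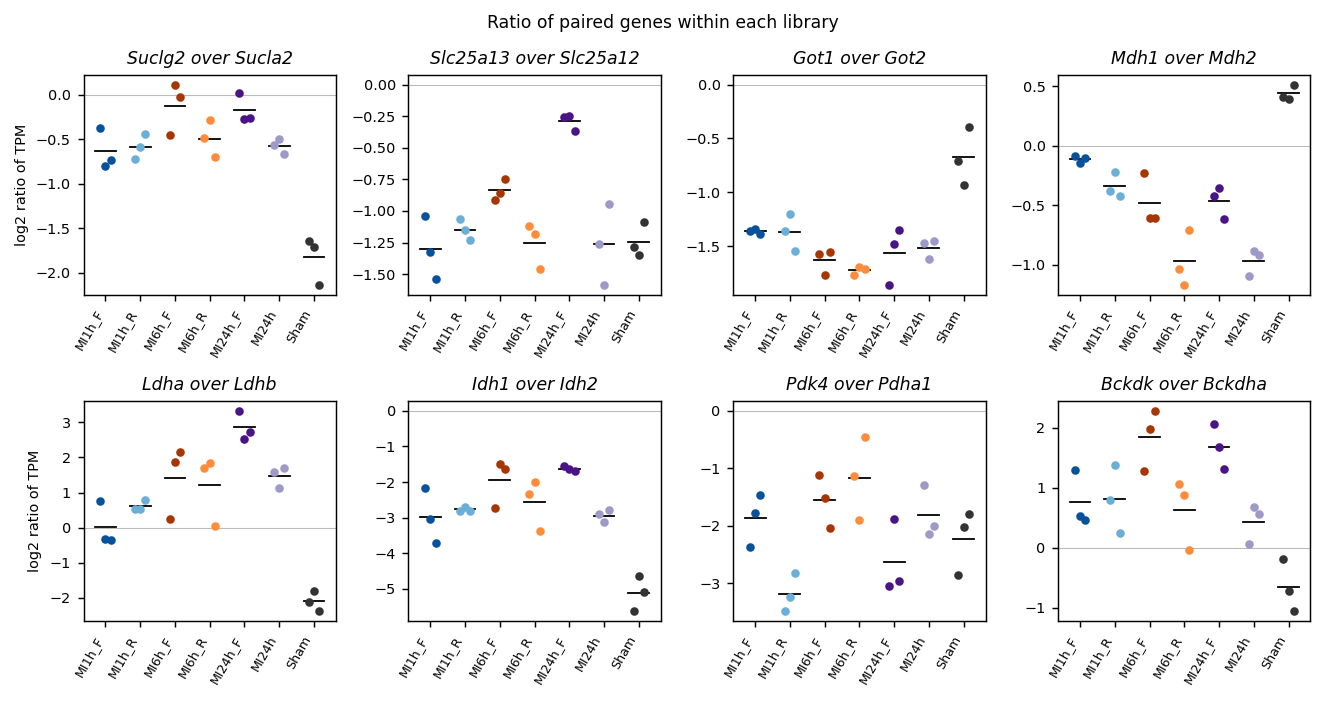
Log2 ratio of TPM of 8 gene pairs (y) in each of the 21 libraries (points) by group (x), with the group mean as a line. Mdh1 over Mdh2 is above 0 only in Sham, Suclg2 over Sucla2 is lowest in Sham, and Slc25a13 over Slc25a12 stands apart in MI24h_F at a mean of -0.29.

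The next question was whether reopening the artery early or late left these genes at other levels than a ligation that stayed in place. Without F, edgeR called 0 of the 34 genes in MI1h_R against MI24h, where 4.32% of all genes were called, and 3 had an unadjusted p below 0.05, or 8.82% of the 34, against 2465 of all 11742 genes. Those 3 were Slc25a13, Mdh1 and Dld, all higher in MI1h_R, at log2 fold changes of 0.50 (SE 0.20), 0.82 (SE 0.32) and 0.49 (SE 0.22) and edgeR adjusted p of 0.152, 0.155 and 0.215. Of the 34 estimates, 31 were above 0, with a median of 0.29 against 0.00 over all genes. The MI1h_R and MI24h libraries did not overlap for 10 genes, 9 of them higher in MI1h_R, where 11.1% of all genes did not overlap in that direction. The smallest estimate was that of Dbt at 0.01. With limma-voom and quality weights, Mdh1 and Slc25a13 were called, without the share of all genes called by that tool beside them.

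In MI6h_R against MI24h edgeR called 0 of the 34 genes, none had an unadjusted p below 0.05, against 8.48% of all genes, and 0.502% of all genes were called. Estimates lay between -0.37 (Ldhb) and 0.27 (Slc25a13), the closest to 0 being Slc25a11 at -0.02, and DESeq2 and limma-voom called 0 as well. In MI1h_R against MI6h_R edgeR called 0 of the 34 genes, where 2.41% of all genes were called, and 8 had an unadjusted p below 0.05, all higher in MI1h_R. These were 23.5% of the 34, close to the 22.0% of all genes below that p in either direction. Mdh1 had the largest of these differences, with 406, 483 and 259 CPM in MI1h_R against 165, 124 and 286 CPM in MI6h_R, a log2 fold change of 1.00 (SE 0.32) and an edgeR adjusted p of 0.0968. The third MI6h_R library exceeded the lowest MI1h_R library, so the groups overlapped. That library also had the highest cardiomyocyte marker sum of MI6h_R, 8837 CPM against 4799 and 3389 CPM. Pdhb and Mpc1, at 0.73 (SE 0.24) and 0.71 (SE 0.25), were the genes without overlap, where 13.2% of all genes did not overlap with MI1h_R higher, and the smallest estimate was that of Bdh1 at 0.01. The count depended on the tool, since DESeq2 called 1 gene (Mdh1) and limma-voom with quality weights, which weights each library, called 13. Without the third MI1h_R library edgeR called 2. The shares of all genes called under these alternatives are not given here.

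The F arm was first compared with the arm without F at each ischemia time. In MI1h_F against MI1h_R edgeR called 0 of the 34 genes, with 0.0766% of all genes called. At an unadjusted p below 0.05 were 2 of the 34, or 5.88%, against 16.3% of all genes. These were Ogdh, with 332, 447 and 462 CPM in MI1h_F against 222, 209 and 264 CPM in MI1h_R, and Pdp1, with 41.3, 46.4 and 59.8 CPM in MI1h_F against 35.8, 41.5 and 31.9 CPM in MI1h_R. Ogdh did not overlap between the groups and Pdp1 did in 1 library pair. Their log2 fold changes were 0.84 (SE 0.30) and 0.43 (SE 0.18), with edgeR adjusted p of 0.191 and 0.236. In MI6h_F against MI6h_R edgeR called 0 of the 34, with 9.62% of all genes called. At an unadjusted p below 0.05 were 5 of the 34, or 14.7%, a smaller share than the 26.1% of all genes. The smallest p was that of Suclg2, with 128, 131 and 117 CPM in MI6h_F against 90.2, 82.0 and 106 CPM in MI6h_R, a log2 fold change of 0.43 (SE 0.16) and an edgeR adjusted p of 0.0937; the groups did not overlap. The others were Bckdha, with the largest estimate at -0.93 (SE 0.37), Slc25a1 at -0.47 (SE 0.21), Slc25a11 at -0.43 (SE 0.19) and Pdp1 at 0.37 (SE 0.18). The smallest estimates were those of Idh3b in MI1h_F against MI1h_R, at 0.02 (SE 0.22), and of Acat1 in MI6h_F against MI6h_R, below 0.01 in absolute size. In MI6h_F against MI6h_R 4 of 9 fibroblast markers rose; of the partners, cytosolic aconitase Aco1 rose by 0.51 (SE 0.14) on the log2 scale.

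In MI24h_F against MI24h, 3 of the 34 genes fell and none rose, where edgeR called 7.78% of all genes lower and 5.19% higher. An unadjusted p below 0.05 was reached by 10 of the 34, all lower. These were 29.4% of the 34, close to the 29.1% of all genes below that p in either direction. Slc25a11 had 35.4, 37.1 and 37.4 CPM in MI24h_F against 50.9, 61.0 and 58.3 CPM in MI24h, a log2 fold change of -0.63 (SE 0.19) with an edgeR adjusted p of 0.0396. Bckdha had 16.9, 20.6 and 21.3 CPM in MI24h_F against 48.5, 37.9 and 47.4 CPM in MI24h, a log2 fold change of -1.19 (SE 0.37) with an edgeR adjusted p of 0.0441. Slc25a12 had 6.66, 5.97 and 7.93 CPM in MI24h_F against 10.6, 13.9 and 10.6 CPM in MI24h, a log2 fold change of -0.77 (SE 0.25) with an edgeR adjusted p of 0.0497. All 3 MI24h_F libraries lay under all 3 MI24h libraries for each of these genes, as they did for 18 of the 34. Of all genes 36.3% did not overlap in either direction, 2464 of 11742 with MI24h_F lower. The largest estimate was that of Ldhb, at -1.32 (SE 0.45) with an edgeR adjusted p of 0.0605, and the smallest in absolute size that of Mdh1, at -0.02 (SE 0.32). The median over the 34 genes was -0.41 against -0.07 over all genes.

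Leaving out any 1 of the 6 libraries left 0 of these 3 calls. The call of Slc25a12 was also lost with library sizes as the only scaling, with median-of-ratios factors, without the filter, with limma on log2(TPM + 1) and in a fit of the 6 libraries alone, at log2 fold changes of -0.76, -0.75, -0.76, -0.73 and -0.73, while those of Slc25a11 and Bckdha held in each of these. By count, limma-voom with quality weights called 9 genes lower and a fit of the 6 libraries alone 5. The shares of all genes called under those settings are not given here. Of the 11 cardiomyocyte markers, 5 also fell in MI24h_F, with a median of -1.38, and their sum was 2069 to 4193 CPM in MI24h_F against 6918 to 10213 CPM in MI24h. The part of this in the 3 falls was not tested. Of the partners, 0 rose and 5 fell, among them Hsd17b10 of isoleucine breakdown at -1.06 (SE 0.23), Auh at -0.86 (SE 0.21), the pyruvate dehydrogenase kinase Pdk2 at -1.28 (SE 0.37) and the succinate dehydrogenase subunit Sdha at -0.77 (SE 0.25).

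Averaged over the 3 ischemia times, Pdp1 rose with F by 0.31 (SE 0.10) on the log2 scale and Bckdha changed by -0.59 (SE 0.21), with edgeR adjusted p of 0.03 and 0.0465, where 11.3% of all genes were called higher and 15.7% lower. An unadjusted p below 0.05 was reached by 6 of the 34, or 17.6%, a smaller share than the 38.5% of all genes. The median was -0.02 both over the 34 genes and over all genes, and the smallest estimate that of Pdhx at 0.01 (SE 0.14). Pdp1 had 41.3, 46.4 and 59.8 CPM in MI1h_F, 45.3, 48.5 and 39.5 CPM in MI6h_F and 42.0, 48.2 and 40.4 CPM in MI24h_F, against 35.8, 41.5 and 31.9 CPM in MI1h_R, 34.8, 32.0 and 36.3 CPM in MI6h_R and 40.4, 35.4 and 44.3 CPM in MI24h. At 6 h of ischemia all F libraries stood above those without F, and at 1 h and at 24 h the groups overlapped. The call of Pdp1 was lost when MI1h_F replicate 5, MI6h_F replicate 2, MI24h_F replicate 2, MI1h_R replicate 11 or 41, MI6h_R replicate 21 or MI24h replicate 21 was left out. That of Bckdha held only without MI1h_F replicate 5, MI6h_F replicate 1, MI1h_R replicate 31, MI6h_R replicate 21 or MI24h replicate 21. Fibroblast markers moved with F in this average, 5 of 9 rising, and the part of cell makeup was not tested. Of the partners, Aco1 at 0.35 (SE 0.08), Slc16a7 at 0.82 (SE 0.24) and Idh1 at 0.42 (SE 0.14) rose, and Hsd17b10 at -0.69 (SE 0.13) and Auh at -0.38 (SE 0.12) fell. Slc16a7 was at low levels, 0.43 to 5.05 CPM over the libraries.

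Within the F arm, early reperfusion was compared with permanent ligation; MI24h_F is also the F group of the comparison with MI24h above, so both rest on its 3 libraries. In MI1h_F against MI24h_F 24 of the 34 genes rose and 0 fell, where edgeR called 8.87% of all genes higher and 6.74% lower. The median over the 34 genes was 0.89 against 0.03 over all genes. The groups did not overlap for 31 genes, all higher in MI1h_F, where 24.1% of all genes did not overlap in that direction. By role, 5 of 8 genes of pyruvate entry, 8 of 11 of the cycle, 5 of 6 of the shuttle, 2 of 3 of the citrate, malate and lactate group, 2 of 3 of the branched-chain dehydrogenase and 2 of 3 of ketone body use rose.

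Slc25a12 had the smallest p, with 13.4, 21.6 and 23.5 CPM in MI1h_F against 6.66, 5.97 and 7.93 CPM in MI24h_F, a log2 fold change of 1.51 (SE 0.25) with an edgeR adjusted p of 0.00209. Slc25a11 had 57.8, 76.1 and 84.5 CPM in MI1h_F against 35.4, 37.1 and 37.4 CPM in MI24h_F, a log2 fold change of 0.99 (SE 0.19) with an edgeR adjusted p of 0.0048. Ldhb had the largest rise, with 455, 869 and 1115 CPM in MI1h_F against 155, 273 and 230.2 CPM in MI24h_F, a log2 fold change of 1.89 (SE 0.46) with an edgeR adjusted p of 0.0119. In each of these genes the first MI1h_F library was the lowest of its group and still stood above every MI24h_F library.

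The other rises, in the order of p, began with Idh2 at 1.83, the pyruvate carrier subunit Mpc1 at 1.12, Suclg1 at 1.00, Acat1 at 1.21, Idh3b at 0.92, Dlst at 0.74 and Bckdhb at 1.34. Next came Ogdh at 1.16, Mdh1 at 1.21, Dlat at 0.71, Oxct1 at 1.66, Mdh2 at 0.86, Got1 at 0.92 and Got2 at 0.73, all log2 fold changes. They closed with Bckdha at 1.28, Pdhb at 0.82, Me3 at 1.39, Cs at 0.75, Mpc2 at 1.55, Pdhx at 0.80 and Fh at 0.74, whose edgeR adjusted p was 0.0462. The genes not called were Sucla2 at 0.73, Pdha1 at 0.73, Slc25a13 at 0.52, Bdh1 at 0.92, Idh3a at 0.39, Dld at 0.43, Suclg2 at 0.29, Dbt at 0.20, Pdp1 at 0.18 and Slc25a1 at -0.03. For the last of these, CPM was 32.8, 29.4 and 28.5 in MI1h_F and 30.3, 31.5 and 30.8 in MI24h_F, with overlap.

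The count of rises depended on single libraries. It was 4 without MI1h_F replicate 5, 8 without MI1h_F replicate 4 and 25 without MI1h_F replicate 1. Without MI24h_F replicates 1, 2 and 4 it was 7, 10 and 11. With the replicate number as a block, all 24 calls were lost, though the numbers share no stated source. The shares of all genes called under these alternatives are not given here. Of the 11 cardiomyocyte markers, 10 rose in MI1h_F against MI24h_F, with a median of 2.06, and their sum was 9446 to 15509 CPM in MI1h_F against 2069 to 4193 CPM in MI24h_F. Of 9 neutrophil markers 6 fell, with a sum of 256 to 615 CPM in MI1h_F against 1255 to 1463 CPM in MI24h_F, and of 9 fibroblast markers 5 rose, with a sum of 8622 to 11211 CPM in MI1h_F against 4229 to 5020 CPM in MI24h_F. The part of cell makeup in the 24 rises was not tested.

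**Figure D5:**
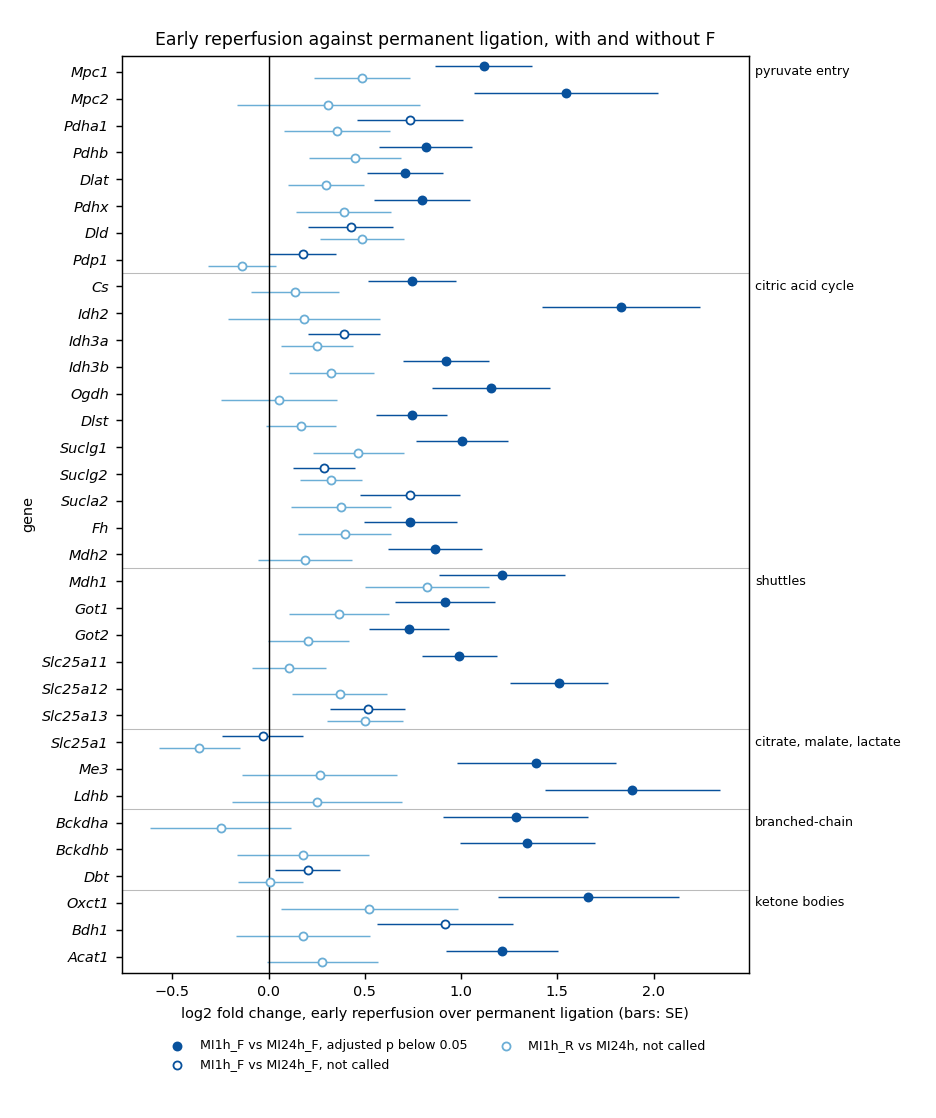
Log2 fold change (x axis) of each of the 34 genes (y axis, grouped by role) in MI1h_F over MI24h_F (dark) and in MI1h_R over MI24h (light), from edgeR on 3 libraries a group; bars are standard errors, and filled points are called at an adjusted p below 0.05. In the F arm 24 points are filled, the largest being Ldhb at 1.89; without F none is filled.

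The difference between the arms was tested directly. For the effect of F in MI1h minus its effect in MI24h, which equals the contrast of MI1h_F with MI24h_F minus that of MI1h_R with MI24h, edgeR called 0 of the 34 genes and 0.00% of all genes. At an unadjusted p below 0.05 stood 9 genes, or 26.5% of the 34, against 16.9% of all genes. All 9 were above 0, led by Slc25a12 at 1.14 (SE 0.35) with an edgeR adjusted p of 0.173, then Slc25a11, Bckdha, Idh2, Ldhb, Ogdh, Bckdhb, Acat1 and Dlst. DESeq2 called 0 and limma-voom with quality weights 8, without the share of all genes that limma-voom called beside it. The rises in the F arm were thus not shown to differ from the estimates without F. For the effect of F in MI6h minus that in MI24h and in MI1h minus that in MI6h, edgeR also called 0 of the 34, with 0.00% and 0.00852% of all genes called, and an unadjusted p below 0.05 for 1 gene (Bckdhb, 1.04 (SE 0.49)) and for 2 genes (Slc25a11, 0.68 (SE 0.27), and Bckdha, 1.28 (SE 0.52)), against 3.62% and 13.2% of all genes. The largest estimates of the 3 differences were those of Idh2, at 1.65 (SE 0.56), Ldhb, at 1.05 (SE 0.63), and Bckdha, and the smallest those of Slc25a13 at 0.01, Slc25a1 at -0.06 and Suclg1 at below 0.01.

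Among the partners in MI1h_F against MI24h_F, 24 of 53 rose and 4 fell. Pdk2, an inhibitory kinase of pyruvate dehydrogenase, had 107 CPM in MI1h_F and 29.9 CPM in MI24h_F, and Sdha, which holds the active site of succinate dehydrogenase, 303 CPM in MI1h_F and 136 CPM in MI24h_F. Aldh5a1, which feeds succinate from GABA breakdown into the cycle, changed by 1.81 (SE 0.38) and the mitochondrial branched-chain aminotransferase Bcat2 by 0.94 (SE 0.20). The 4 that fell were Ldha at -1.01 (SE 0.20), Slc16a3 at -2.80 (SE 0.58), Asns at -0.93 (SE 0.27) and the kinase Pdk3 at -1.07 (SE 0.33). Without F, Slc16a3 also fell in MI1h_R against MI24h, at -2.82 (SE 0.58), as did the kinase Pdk1 at -1.01 (SE 0.25), and the pyruvate and lactate carrier Slc16a7 rose at 1.83 (SE 0.44). Slc16a7 was at low levels, with 2.80, 3.92 and 1.14 CPM in MI1h_R against 1.09, 0.43 and 0.69 CPM in MI24h.

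The F arm also held late reperfusion. In MI6h_F against MI24h_F edgeR called 0 of the 34 genes, with 0.485% of all genes called, and 2 had an unadjusted p below 0.05, or 5.88%, against 9.40% of all genes. Slc25a12 had 15.9, 11.1 and 11.7 CPM in MI6h_F against 6.66, 5.97 and 7.93 CPM in MI24h_F, without overlap, at 0.91 (SE 0.25) and an edgeR adjusted p of 0.143; DESeq2 called it. Pdhx, the other gene, stood at 0.59 (SE 0.25), and the smallest estimate was that of Pdp1 at 0.03. In MI1h_F against MI6h_F edgeR called 0 of the 34 and 0.00% of all genes, while 17 of the 34 had an unadjusted p below 0.05, all higher in MI1h_F, against 13.6% of all genes in either direction. The median was 0.56 over the 34 genes. Slc25a11 had the smallest p, with 57.8, 76.1 and 84.5 CPM in MI1h_F against 49.2, 38.1 and 37.9 CPM in MI6h_F, at 0.80 (SE 0.19) and an edgeR adjusted p of 0.21; its groups did not overlap. Ldhb had the largest estimate, at 1.21 (SE 0.45), and Suclg2 the smallest, at 0.03. The first MI6h_F library held 8607 CPM of cardiomyocyte markers, against 3531 and 2934 CPM in the other two, and had the highest level of its group for most of the 34 genes. DESeq2 called 1 of the 34 and limma-voom with quality weights 18, and without that first MI6h_F library edgeR called 2. The shares of all genes called under these alternatives are not given here.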

How the data were processed

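RNA from the infarct zone was sequenced in 21 libraries. Per the submitters' processing notes, reads were aligned to rn7 with STAR 2.7.3a and summarised with RSEM 1.3.1; the annotation and the strandedness of counting are not given in the sources used here. The authors deposited whole-number counts per gene symbol and TPM values; counts entered the tests and TPM the levels between genes and the ratios within a library. In the deposited counts 353 sets of rows were identical across libraries, and reads of such genes cannot be told apart.

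The members and all lists were chosen with earlier results of these data known. Counts were normalised by TMM and fitted with 1 term per group over all 21 libraries (R 4.3.3, edgeR 4.0.16, quasi-likelihood test), after edgeR's filter on low counts left 11742 of 17085 genes, with Benjamini-Hochberg adjustment over those genes in each of 16 comparisons. TMM factors were 0.535 to 0.677 in Sham and 0.996 to 1.17 elsewhere. The test was tried on simulated data first. Alternatives were DESeq2 1.42.0, limma 3.58.1 with voom quality weights, limma on log2(TPM + 1), other scaling factors, all genes unfiltered, mitochondrial genes left out, a fit of the compared groups alone, the replicate number as a block and each library left out. Members called are named in the order of p with the smallest and largest estimate, and up to 4 partners per direction by p; promoters were chosen after values were seen, since the motif meant to choose them was found in none. A result for 1 partner gene is not reported here.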

Additional observations from a re-analysis of the deposited data

How the results depend on the processing

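Ratios within libraries kept their values within the spread of replicates in all 672 recomputations. Where 1 library was left out this could not fail, since dropping 1 of 3 cannot move a group mean beyond that spread. Those recomputations therefore do not test whether the ratios are stable. Of the recomputed log2 fold changes of members named as called or as largest, 2375 kept their side of the threshold. Another 151 lost a call, 27 gained one and 0 changed direction. The falls against Sham kept their counts throughout, while the rise of Slc25a1 in MI1h_R was not called in a fit of the compared groups alone (0 genes). The size of the falls depended on the scaling. On log2(TPM + 1) the median of the members was -1.27 in MI1h_R, -1.32 in MI6h_R and -1.42 in MI24h. All genes then had a median of 0.72, 0.99 and 0.83. With limma-voom the count of members called higher was 2 in MI1h_R against MI24h, 13 in MI1h_R against MI6h_R, 2 in MI1h_F against MI1h_R, 1 in MI6h_F against MI6h_R, 18 in MI1h_F against MI6h_F, 3 for the F average, 8 for the effect of F in MI1h minus MI24h and 1 for MI1h minus MI6h, and lower 9 in MI24h_F against MI24h and 4 for the F average. With DESeq2 it was 1 higher in MI1h_R against MI6h_R, in MI6h_F against MI24h_F and in MI1h_F against MI6h_F, and 2 higher and 2 lower for the F average. On log2(TPM + 1) it was 1 lower in MI6h_F against MI6h_R, and 3 higher and 2 lower for the F average. For that average, library size alone and a fit of the compared groups gave 3 higher and 2 lower each, and median-of-ratios factors 0 lower. The compared groups alone gave 5 lower in MI24h_F against MI24h. Shares of all genes are not set beside the counts of these alternatives. Leaving out 1 library gave 0 to 2 higher in MI1h_R against MI6h_R, 0 lower in MI24h_F against MI24h, 4 to 25 higher in MI1h_F against MI24h_F, 0 to 2 higher in MI1h_F against MI6h_F, and 0 to 2 in either direction for the F average. The replicate block gave 0 higher in MI1h_F against MI24h_F; the numbers share no stated source, and the best correlated library had the same number for 1 of the 12 without F and 0 of the 9 in the F arm. Counts over all genes moved by over 1.5 times in 179 recomputations and by less in 347. The causes were not tested. Depth limits Mpc2, at 9 to 170 counts per library, and the partner Slc16a7, at 0.43 to 5.05 CPM, and groups of 3 limit every comparison.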
